A study of Mus musculus with 1 sample.

Results

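Genes for the core proteins of the spliceosome were examined for the length of the poly(A) tails on their mRNAs in wild-type mouse cells that had differentiated for 24 h. The members were protein-coding genes whose symbols start with Snrp, Sf3a, Sf3b, Prpf or U2af. There were 37 such genes, and 33 of them had at least 10 transcripts, out of 7146 nuclear genes with that many. The cells were ICR-strain embryonic stem cells (ESCs) grown toward epiblast-like cells (24h-EpiLCs) in medium with activin A, bFGF and KSR. They carry no deletion, and cells without the deadenylase Cnot8 were not analysed here. The data come from 1 sample that holds 2 replicates, marked by barcodes in the same table. The labels do not say whether the replicates came from separate cultures, and replicates 1 and 2 are numbered by barcode. With 1 group there was no contrast to test, so all comparisons between genes below are descriptions.

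The spliceosome removes introns from pre-mRNA and is built from small nuclear ribonucleoproteins (snRNPs). Each snRNP carries a small nuclear RNA, and most of these RNAs sit inside a ring of small Sm proteins. Larger proteins then recognise the branch site and the splice sites, join the snRNPs to each other and form the catalytic centre. The mRNAs of these proteins are themselves polyadenylated, and a poly(A) tail is added when the transcript is cleaved, then shortened by deadenylases in the cytoplasm. Tail length is thus a property of each mRNA molecule, and PAIso-seq reads it directly from full-length cDNA.

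The Sm genes were Snrpb, Snrpd1, Snrpd2, Snrpd3, Snrpe, Snrpf, Snrpg and Snrpn. Large factors were the 19 members whose longest annotated protein has at least 400 residues, from Sf3b4 with 424 to Prpf8 with 2335. The remaining 10 members, from Sf3b5 with 86 residues to Prpf18 with 342, are called the other small members. The gene tail is given in nt, as the geometric mean of the tails of all transcripts of the gene. Reads needed at least 7 passes of the circular molecule, and each read counted as 1 transcript. The members had 1514 transcripts in replicate 1 and 2849 in replicate 2, or 0.615% and 0.625% of 246316 and 455660 nuclear transcripts. Replicate 2 was thus the deeper library for most members.

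Markers fixed for the cells were checked first. All 5 pluripotent and all 6 formative genes were detected, with summed transcripts of 365 and 436 in replicate 1 and of 583 and 660 in replicate 2. The 6 naïve genes summed to 159 and 409, of which Zfp42 alone held 129 and 372. Of 5 trophoblast genes, Cdx2 and Gata3 were at 0 and the list summed to 3 and 23, mostly Krt8 and Krt18. The primitive endoderm list summed to 0 and 1, with Gata4, Sox17, Dab2 and Foxa2 at 0, and the fibroblast list summed to 1 and 1, with Col1a1, Col1a2, Col3a1 and Acta2 at 0.

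The annotated 3′ ends of the members show where a tail would be joined. Both common hexamers of the poly(A) signal, AATAAA and otherwise ATTAAA, were searched on the transcript strand in the last 40 bases of the transcript with the longest coding part. The former was found in 18 of 33 tested members, or 54.5%, against 61.1% of 6723 tested protein-coding genes with a complete 3′ end. The latter was found in 6 members, or 18.2%, against 14.0%. By this measure the members had no shared signal that other genes lack, and 4 of 6 tested Sm genes and 10 of 18 tested large factors held AATAAA. Windows of 30 bases are shown for 3 Sm genes and for 3 large factors, namely the member with the most transcripts and those with the lowest pooled gene tails. They come from the GENCODE vM21 transcripts on GRCm38, run 5′ to 3′, and have the hexamer in capitals.
Snrpd3 (chr10:75537352-75537381, + strand): attgtattAATAAAtggtgcatgaaaagtt
Snrpe (chr1:133603876-133603905, - strand): AATAAAtgctgtaggaagtttttgttaaaa
Snrpb (chr2:130171638-130171667, - strand): AATAAActaagagactgttatacatacagt
Sf3b1 (chr1:54985169-54985198, - strand): accagataAATAAAacttatcacatctaaa
Prpf4b (chr13:34906035-34906064, + strand): aagcttAATAAAgtgtgcctcttgctacca
Prpf39 (chr12:65063357-65063386, + strand): gtaatccttAATAAAtgcttactaacatta
The windows for Snrpe and Snrpb begin at the hexamer, because their annotated ends lie farther from it. The deposited table holds no alignment positions, so the cleavage sites used in these cells were not analysed here.

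Sm genes had long tails. The median over the 6 tested Sm genes was 108 nt, or 108 nt and 107 nt in replicates 1 and 2 (SD 0.850, n = 2). All tested nuclear genes had a median of 76.4 nt, with quartiles of 62.4 nt and 88.6 nt. The 18 tested large factors had a median of 73.8 nt, with 76.7 nt over 16 genes in replicate 1 and 73.2 nt over 18 genes in replicate 2. Sm genes exceeded large factors by 31.5 nt in replicate 1 and by 33.8 nt in replicate 2, on average by 32.7 nt ± 1.65 (SD, n = 2). This gap was larger than the spread between replicates, which does not measure the spread among genes, and its pooled value was 34.3 nt. Pooled gene tails ran from 78.9 nt to 117 nt in Sm genes and from 23.3 nt to 96.0 nt in large factors, so single genes overlapped. The 9 tested other small members lay between these classes, with a median of 84.5 nt, 91.4 nt and 79.8 nt in the replicates. The median number of passes was 52 in Sm genes, 42 in other small members and 32 in large factors, and 95.3%, 94.7% and 91.9% of their reads were kept by the pass filter. The part of these passes in the difference between classes was not tested, beyond a stricter limit of 15 passes, with which it was 34 nt.

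Snrpd2 encodes SmD2, which pairs with SmD1 in the ring. With 115 nt and 119 nt in replicates 1 and 2, it had the longest pooled gene tail of the members (ENSMUSG00000040824, 159 transcripts), but its replicate range overlapped those of Snrpf and Snrpd3. Snrpf, for SmF, had 114 nt and 117 nt from 76 transcripts. Snrpd3, for SmD3, had 119 nt and 112 nt from 51 transcripts. The lowest replicate value of these 3 genes, 112 nt, lay above the highest replicate value of every other tested member, which was 107 nt for U2af2. They lay at percentiles 98, 97.7 and 97.2 of all tested genes.

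Snrpd1, for SmD1, followed with 103 nt in replicate 1 and 102 nt in replicate 2 from 138 transcripts. Snrpe, for SmE, had 77.3 nt and 95.6 nt from 103 transcripts, so its replicates lay on different sides of the all-gene medians of 78.0 nt and 76.8 nt. Snrpb, for SmB, had 79.8 nt and 78.0 nt from 100 transcripts, the lowest pooled value of the tested Sm genes, although Snrpe was lower in replicate 1. The Sm ring was thus not uniform, since both replicates of Snrpb lay below both of Snrpd2, and the values of each gene were close between replicates. The median transcript of Snrpd2 had 125 nt, with an exact binomial 95% interval of 114 nt to 136 nt. For Snrpb it was 81.5 nt (68 nt to 113 nt), and for Snrpe 109 nt (88 nt to 117 nt).

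Snrpn and Snrpg could not be tested as annotated. Snrpn, for the SmB paralogue SmN, had 0 transcripts in either replicate, which allows up to 0.00122% of the nuclear transcripts of replicate 1 and 0.000658% of those of replicate 2. Its exons overlap those of Snurf over 216 nt and of Gm38393 over 589 nt on the same strand, and how reads that fit several genes were counted is not given in the sources used here. Snrpg, for SmG, had 8 transcripts, just under the minimum, with tails of 3 nt to 160 nt and a median of 128 nt. The 3 in replicate 1 had a geometric mean of 142 nt and the 5 in replicate 2, of which 2 had under 6 nt, had 28.9 nt. U2af1l4 with 0 and Sf3a2 with 3 transcripts were the other members below it, and Prpf40b with 14 and Snrpc with 29 were the nearest above.

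**Figure D1:**
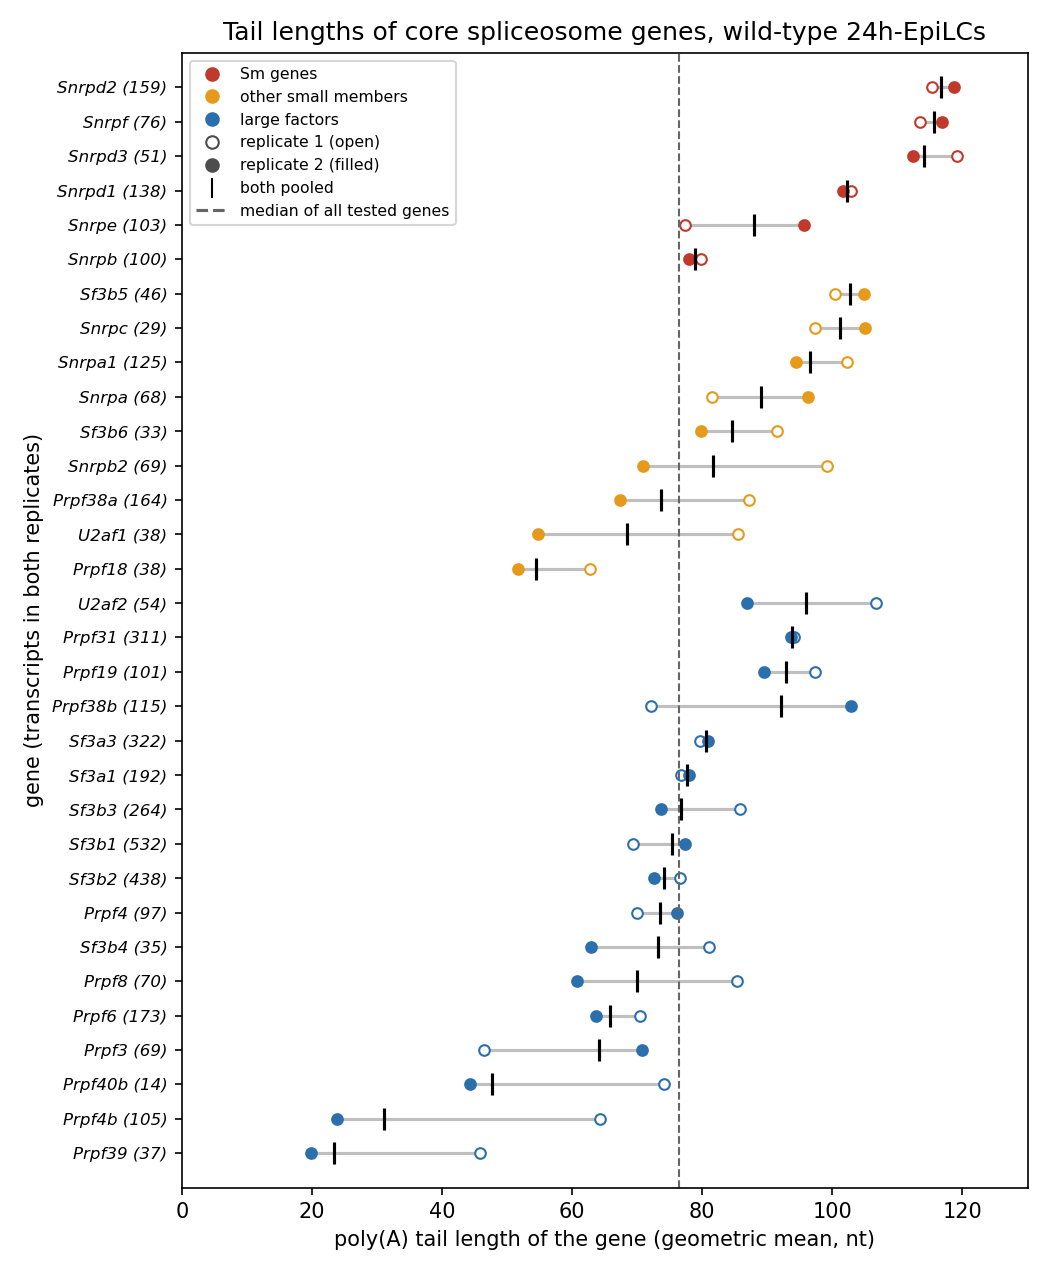
Gene tail length (geometric mean over transcripts, nt, horizontal axis) of the tested members named in the text, grouped by class, with open circles for replicate 1, filled circles for replicate 2, black ticks for both pooled and transcript numbers in parentheses. Snrpd2, Snrpf and Snrpd3 lie at 112 nt or more in both replicates, and Prpf4b and Prpf39 lie lowest, with wide gaps between their replicates.

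Over transcripts instead of genes, the classes kept this order. The median transcript of the Sm genes had 115 nt over 635 transcripts, and 118 nt and 114 nt in the replicates. That of the large factors had 89 nt over 3118 transcripts, and 89 nt in each replicate. The other small members had 95 nt over 610 transcripts, and all nuclear protein-coding genes had 91 nt. Tails over 150 nt made up 26.9% of Sm transcripts in replicate 1 (95% Wilson interval 22.0% to 32.4%) and 26.1% in replicate 2 (21.8% to 30.9%). Large factors had 16.6% (14.5% to 19.1%) and 16.7% (15.2% to 18.3%), so the intervals of the classes did not overlap in either replicate. All nuclear protein-coding genes had 16.1% and 15.3%. These intervals cover counting error only, since the reads have no molecular identifiers, and transcripts of the same gene share their source.

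**Figure D2:**
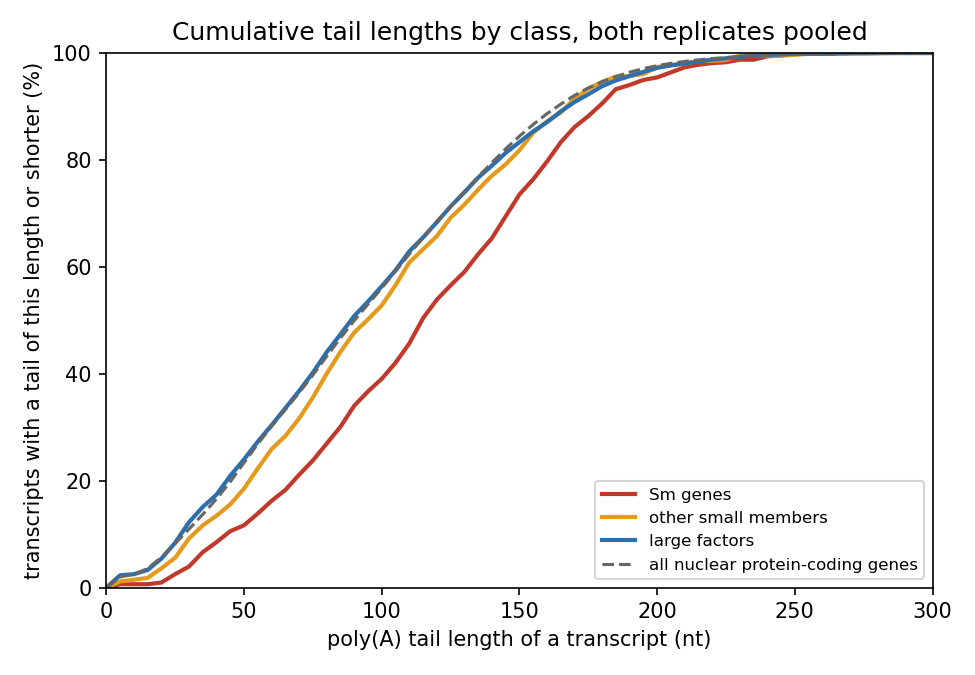
Share of transcripts (%, vertical axis) with a poly(A) tail of a given length or shorter (nt, horizontal axis), both replicates pooled, for Sm genes, other small members, large factors and all nuclear protein-coding genes. The curve of the Sm genes lies to the right, with a median transcript of 115 nt against 89 nt for large factors, whose curve follows that of all protein-coding genes with 91 nt.

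Some proteins are particular to U1 or U2 snRNP. Snrpc, for protein C of U1 snRNP, had 97.3 nt in replicate 1 and 105 nt in replicate 2 from 29 transcripts. Snrpa, for protein A of U1 snRNP, which binds a loop of U1 RNA, had 81.4 nt and 96.3 nt. Snrpa1, for protein A′ of U2 snRNP, had 102 nt and 94.5 nt, and lay at percentile 86.1. Its partner Snrpb2, for protein B″ of U2 snRNP, had 99.2 nt and 70.9 nt, on different sides of the all-gene medians.

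The SF3b complex, which binds the branch site within U2 snRNP, held members of both sizes. Sf3b5 and Sf3b6, for small subunits, had pooled gene tails of 103 nt and 84.5 nt. Sf3b6 had 91.4 nt and 79.8 nt in the replicates from 33 transcripts. The large subunits lay closer to all genes. Sf3b1, the scaffold of the complex, had 69.3 nt and 77.4 nt from 532 transcripts, the most of any member, and its median transcript of 89 nt had an interval of 82 nt to 94 nt. Sf3b2 had 76.6 nt and 72.6 nt, Sf3b3 had 85.8 nt and 73.7 nt, and Sf3b4 had 81.1 nt and 62.9 nt. Of SF3a, Sf3a1 had 76.8 nt and 78.0 nt, and Sf3a3 had 79.7 nt and 80.9 nt. The 4 genes Sf3a1, Sf3a3, Sf3b1 and Sf3b2, with 192 to 532 transcripts each, had pooled values between 74.1 nt and 80.5 nt.

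U2AF reads the end of the intron, with U2af2 on the polypyrimidine tract and U2af1 on the AG. U2af2 had 107 nt and 86.9 nt in the replicates, the longest pooled gene tail of the large factors at 96.0 nt. U2af1 had 85.5 nt and 54.8 nt from 38 transcripts, and its value is uncertain because of a near-identical copy described below.

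The large Prpf genes had pooled gene tails from 23.3 nt for Prpf39 to 93.8 nt for Prpf31. Prpf31, which binds the U4 snRNP, had 94.1 nt and 93.6 nt from 311 transcripts. Prpf19, the ubiquitin ligase of the complex named after it, had 97.3 nt and 89.5 nt from 101 transcripts, and both were above the all-gene median in both replicates. Prpf8, the protein at the heart of the catalytic centre, had 85.3 nt and 60.8 nt from 70 transcripts, although its median transcript had 109.5 nt (82 nt to 122 nt). Prpf6, which bridges the U4/U6 and U5 snRNPs, had 70.4 nt and 63.6 nt. Prpf3 and Prpf4, which bind together to U4/U6, had 46.4 nt and 70.7 nt, and 70.0 nt and 76.1 nt. Prpf40b rested on 14 transcripts, with 74.1 nt from 2 in replicate 1 and 44.3 nt from 12 in replicate 2.

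Among the small Prpf genes, Prpf18, for a factor of the later splicing step, had 62.8 nt and 51.6 nt from 38 transcripts, the lowest of the other small members. Prpf38a had 87.1 nt and 67.4 nt, and the larger Prpf38b had 72.2 nt and 103 nt, so their replicates differed in opposite directions. Among the 31 members with 10 or more transcripts per replicate, the median absolute difference between replicates was 7.81 nt, against 10.4 nt over 4286 nuclear genes. Spearman's correlation between replicates over these 31 genes was 0.646 and Pearson's correlation of log2 values was 0.58, given as a description because the genes share both libraries. When the 33 members were ordered by pooled gene tail, the replicate ranges were apart in 2 of 32 neighbouring pairs, Snrpd3 over Sf3b5 and Snrpb over Sf3a1.

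Each member was then placed against the all-gene median of each replicate. Of 31 members, 14 lay above it in both replicates, 7 lay below it in both and 10 lay on different sides. Of all 4286 nuclear genes, 35.7% lay above in both and 33.4% below in both. Among protein-coding genes with a protein of under 400 residues, 49.3% lay above in both and 19.3% below in both. Of the Sm genes, 5 of 6 lay above in both and 0 below, and of the other small members 5 of 9 lay above in both and 1 below. Among protein-coding genes with at least 400 residues, 19.8% lay above in both and 47.3% below in both. Of the large factors, 4 of 16 lay above in both and 6 below. The counts of the other small members and of the large factors were thus near these backgrounds of their own size. The tested Sm proteins have only 86 to 231 residues, so the background of under 400 residues does not match their size. Bins of like size are used for them below.

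Protein length was therefore set beside tail length for all genes. Over 33 members, Spearman's correlation of gene tail with protein length was -0.682, and Pearson's of the log2 values was -0.54. Over the 27 members that are not Sm genes it was -0.529 and -0.40. Over all 6754 tested protein-coding genes it was -0.386 and -0.37, so the direction was not particular to the spliceosome. Restricted to tails of 15 nt or more, it was -0.617 over the members and -0.267 over 6602 genes. Transcript length had a Spearman's correlation of -0.486 over the members and -0.363 over all genes, so it went with tail length as well. The annotated 3′ UTR length had -0.142 over the members, and transcript number had 0.0729. These correlations are across genes measured in the same libraries, and no p was computed.

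Tested protein-coding genes were divided by protein length into 10 bins of equal size, to compare members with genes of like size. The bin with the shortest proteins, 46 to 178 residues, had a median of 90.7 nt. The next bins had 83.1 nt and 79.3 nt, and the last had 60.9 nt. Snrpd2, Snrpf, Snrpd3 and Snrpd1 lay above the median of their bin by 26.1 nt, 24.9 nt, 23.4 nt and 11.4 nt. Snrpe and Snrpb lay under theirs, with differences of -2.72 nt and -4.26 nt between pooled values. By definition, as many genes of a bin lie above its median as below it. Of the large factors, 10 of 18 lay above the median of their bin, with a median difference of 6.72 nt. U2af2, Prpf38b, Prpf31 and Prpf19 did so by 22.1 nt, 20.8 nt, 20.0 nt and 18.9 nt, and Sf3b3 and Sf3b1, in the bin with the longest proteins, by 15.8 nt and 14.4 nt. The rest lay under theirs, and Prpf39, Prpf4b and Prpf40b lay furthest, with -45.3 nt, -36.2 nt and -19.7 nt. Of the other small members, 4 of 9 lay above theirs. The counts of both classes were thus near an even split. The Sm genes as a whole had a median of 17.4 nt above genes of their size.

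**Figure D3:**
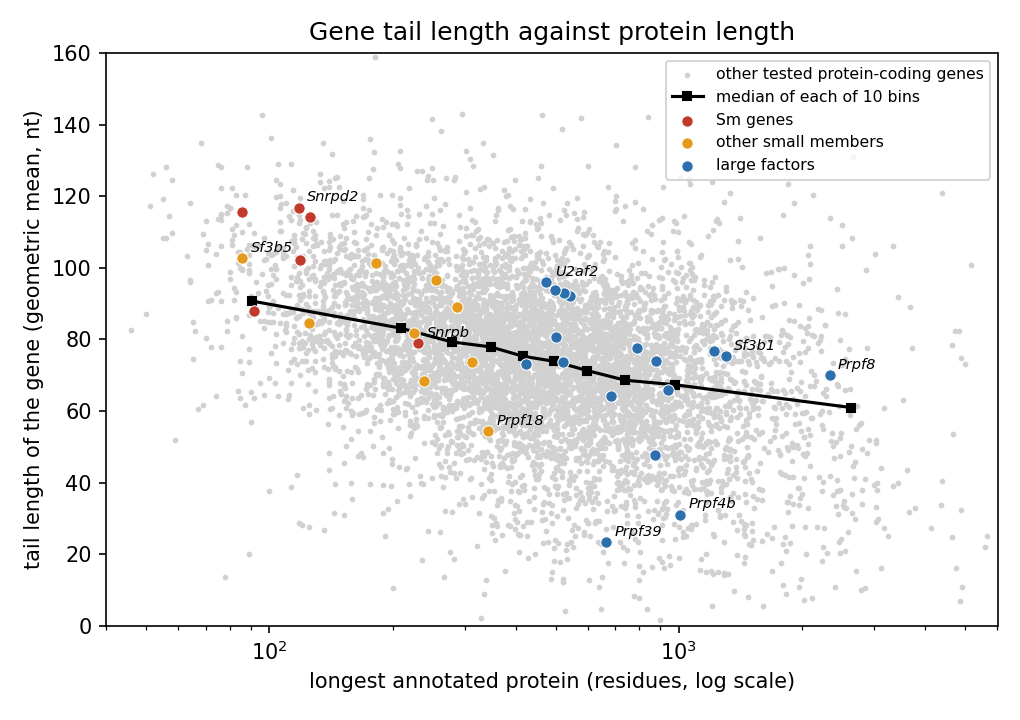
Gene tail length (geometric mean, nt, vertical axis) against the longest annotated protein (residues, log scale, horizontal axis) for tested protein-coding genes in grey, without the few that lie outside the axes, and for the members named in the text in colour, with black squares for the median of each of the 10 bins at the middle of its length range. Snrpd2 and the other D-type Sm genes lie above the line of medians, Snrpb close under it, and Prpf4b and Prpf39 far under it.

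Very short tails were counted next. Tails of 1 to 5 nt made up 0.398% of transcripts of the large factors in replicate 1 (4 of 1004, Wilson interval 0.155% to 1.02%) and 3.22% in replicate 2 (68 of 2114, 2.55% to 4.06%). All nuclear protein-coding genes had 0.988% and 2.55%, so such tails were more frequent in replicate 2 in both sets. Sm genes had 0.717% (2 of 279, 0.197% to 2.58%) and 0.562% (2 of 356, 0.154% to 2.02%). In replicate 2 their interval did not overlap that of the large factors, and in replicate 1 it did. This separation rested on Prpf4b and Prpf39, without which large factors had 2.14% in replicate 2 (43 of 2007, 1.59% to 2.87%), an interval that overlaps that of the Sm genes.

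Prpf4b, for a kinase that phosphorylates other splicing factors, had 18 tails of 1 to 5 nt among 105. Replicate 1 held 1 of these among 28 transcripts (3.57%, 0.633% to 17.7%), and replicate 2 held 17 among 77 (22.1%, 14.3% to 32.5%). All 17 had a length of exactly 1 nt. Its replicates had 64.2 nt and 23.8 nt, and without tails under 6 nt they had 71.2 nt and 58.6 nt. Prpf39, for a U1-associated protein, had 0 such tails among 7 transcripts in replicate 1, where the Wilson interval reaches 35.4%, and 8 among 30 in replicate 2, all of 1 nt. Its replicates had 45.7 nt and 19.9 nt, and without tails under 6 nt they had 45.7 nt and 59 nt. Exons of Prpf39 share 599 nt with Fkbp3 on the opposite strand, and use of strand in the counting is not given in the sources used here. Snrpf likewise shares 567 nt with Ccdc38, which had 4 transcripts. Over all members, 50 of 54 tails of 1 nt were in replicate 2, or 1.76% of its member transcripts against 0.264% in replicate 1. All protein-coding genes had 1.54% and 0.520%. Whether several of these reads copy 1 molecule was not tested, since the table holds neither identifiers nor positions. Tails of 1 nt are also too short to pass the authors' step on A at the tail start, described below. The low gene tails of Prpf4b and Prpf39 thus rest in part on reads that this step would leave out.

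Without the tails of 1 to 5 nt, the class medians stayed apart, although single genes overlapped. Snrpb had 78.9 nt and the large factor U2af2 had 105 nt with tails of at least 6 nt. With tails of at least 6 nt the median gene tail of the large factors was 79.6 nt, that of the Sm genes stayed at 108 nt, and the difference was 28.5 nt. Prpf4b then had a pooled gene tail of 62.2 nt and Prpf39 55.5 nt. Without both genes, 46 of 2976 tails of large factors had 1 to 5 nt, or 1.55% (1.16% to 2.06%).

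With both replicates pooled, bases other than A were about as frequent in Sm genes as in large factors. They occurred in 9.61% of Sm tails (Wilson interval 7.55% to 12.1%), 9.53% of tails of large factors (8.54% to 10.6%) and 10.7% of tails of all nuclear protein-coding genes. The direction differed by replicate, with 9.32% in Sm genes and 11.7% in large factors in replicate 1, and 9.83% and 8.51% in replicate 2. All nuclear protein-coding genes had 12.4% and 9.77% in the replicates. T as the last base was examined in tails of 12 to 30 nt, because uridylation is known on short tails. Large factors had 300 such tails and 54 of them ended in T, 21.6% in replicate 1 (15% to 29.9%) and 15.8% in replicate 2 (11.2% to 21.7%). All nuclear protein-coding genes had 18% and 13.5%, inside these intervals. Among the large factors, Prpf4b alone held 3 and 17 tails of this length in the replicates. Of its tails of any length, 10 ended in T, and the share of the large factors without it was not computed. Sm genes had only 21 tails of this length and 0 of them ended in T, which leaves a share of up to 15.5% by the Wilson interval. In the single replicates this interval reached 24.2% and 29.9%. Pooled shares were 18% in large factors (14.1% to 22.7%) and 15.2% in all nuclear protein-coding genes. Whether Sm genes differ from the other genes was not tested at this depth. Tails of 12 to 30 nt were themselves rarer in Sm genes, at 3.31% of all tails against 9.62% in large factors and 8.31% in all protein-coding genes. Some tails that end in T are shown as the table gives them, as DNA letters from 5′ to 3′ with the last base in capitals.
Prpf8, replicate 2, 12 nt: aaaaaaaaaatT
Prpf4b, replicate 2, 16 nt: aaaaaaaaaaaaaaaT
Sf3b2, replicate 1, 17 nt: aaaaaaaaaaaaaaatT
Sf3b1, replicate 2, 24 nt: aaaaaaaaaaaaaaaaaaatataT
The tails from Prpf8 and Sf3b2 carry a further T before the last base, and that from Sf3b1 alternates T and A near its end.

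**Figure D4:**
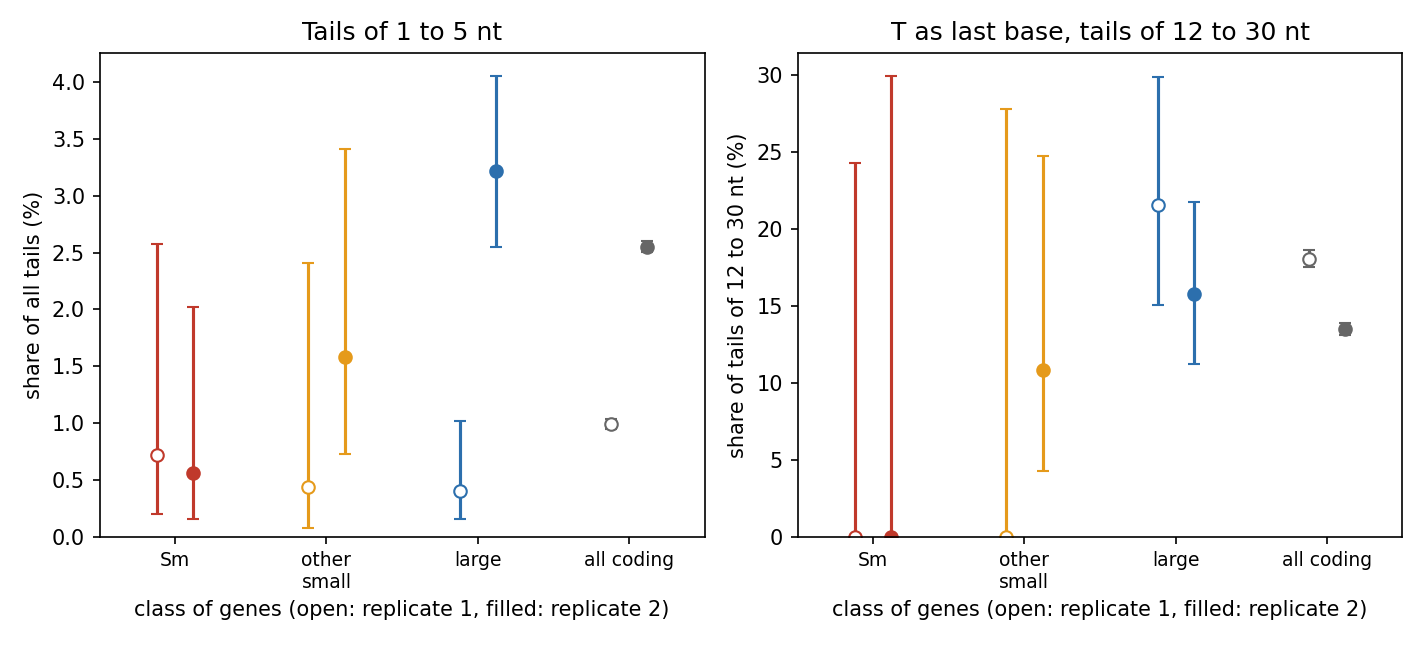
Left, share of all tails with 1 to 5 nt (%), and right, share of tails of 12 to 30 nt with T as the last base (%), for the 3 classes of members and all nuclear protein-coding genes, with open circles for replicate 1, filled circles for replicate 2 and 95% Wilson intervals as bars. Large factors had 0.398% and 3.22% in the left panel, and 0 of 21 Sm tails ended in T in the right panel.

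Reads were also assigned to near-identical processed copies of several members. Copies with at least 98% identity over at least 200 nt were found among annotated pseudogenes for 7 members, 1 each, and 4 of the copies had at least 10 transcripts. Gm8186 (ENSMUSG00000049124, GRCm38 chromosome 17, 26098991 to 26099221) is identical to Snrpg over 231 nt and had 125 transcripts, against 8 for Snrpg. Its replicates had 116 nt and 114 nt, close to those of Snrpf and Snrpd3. Gm10232 (chromosome 17, 3044014 to 3044733) matches U2af1 at 99.7% over 720 nt and had 140 transcripts, against 38. Its tail was 92.3 nt and 94.7 nt, with 0 tails of 1 to 5 nt against 3 for U2af1. Gm10120 matches Snrpd2 at 98.9% over 357 nt and had 130 nt from 20 transcripts and 103 nt from 46. Gm7935 matches Sf3b4 at 99.3% over 1278 nt and had 79.9 nt from 8 and 86.6 nt from 12.

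The table does not show from which locus such a molecule was transcribed. With the transcripts of copies added to their parents, Snrpg had 109 nt from 133 transcripts, and 118 nt and 105 nt in the replicates. U2af1 had 87.8 nt from 178 transcripts, with 90.2 nt and 86.5 nt, above the all-gene median in both replicates. Snrpd2 had 115 nt, then under Snrpf, and Sf3b4 had 76.9 nt. The Sm genes, then 7 tested, had a median of 109 nt and lay 34.7 nt above the large factors. Adding the copies was chosen after the low number of Snrpg transcripts was seen.

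**Figure D5:**
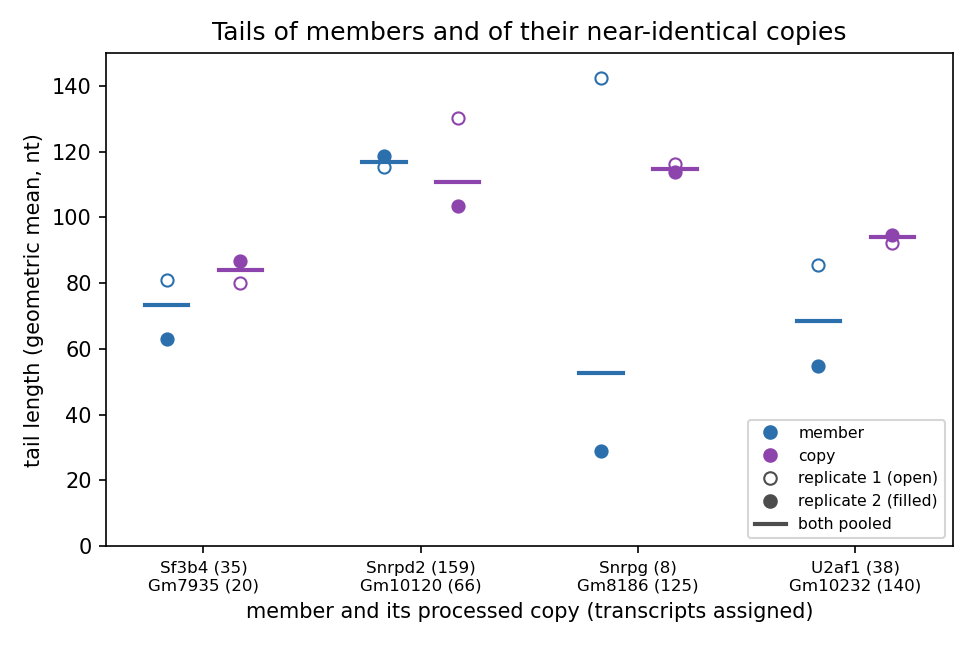
Tail length (geometric mean, nt, vertical axis) of 4 members and of their near-identical processed copies, with open circles for replicate 1, filled circles for replicate 2, bars for both pooled and the number of transcripts assigned to each gene on the horizontal axis. Snrpg rests on 8 transcripts with replicates far apart, while its copy Gm8186 rests on 125 transcripts with replicates at 116 nt and 114 nt.

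Other genes of the splicing machinery, which the symbol rule leaves out, were compared by the same size boundary. Of 57 genes listed and found in the annotation, 52 had at least 10 transcripts. The median over the 25 small genes was 87.7 nt, and the replicates had 84.7 nt and 91.4 nt. The 27 large genes had 71.7 nt, with 74.0 nt and 73.8 nt. Small genes exceeded large ones by 10.7 nt and 17.6 nt in the replicates, on average by 14.2 nt ± 4.83 (SD, n = 2). This gap too was larger than the replicate spread, but single genes overlapped. Pooled gene tails ran from 52.8 nt to 125 nt in small genes and from 37.4 nt to 90.3 nt in large ones. For all tested protein-coding genes the medians were 82.1 nt under 400 residues and 69.7 nt from 400 residues on. Of 20 small genes with enough transcripts in each replicate, 14 lay above the all-gene median in both and 2 below in both, beside 49.3% and 19.3% of all protein-coding genes of that size. Of 26 large genes 7 lay above in both and 14 below in both, beside 19.8% and 47.3%.

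The LSm proteins form a related ring on U6 RNA. Of the 7 genes, Lsm2, Lsm4, Lsm6 and Lsm8 had at least 10 transcripts, with a median of 100.3 nt. Lsm2 had 95.5 nt and 117 nt, Lsm4 had 104 nt and 100.1 nt, and Lsm6 had 91.1 nt and 103 nt, all above the all-gene median in both replicates. Lsm8 had 65.8 nt and 70.8 nt, below it in both. Lsm7 with 8, Lsm5 with 4 and Lsm3 with 1 transcript fell short of the minimum. The large partners of Prpf8 in U5 snRNP, the helicase Snrnp200 and the GTPase Eftud2, had 77.6 nt and 83.0 nt, and 79.9 nt and 92.7 nt.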

How the data were processed

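PAIso-seq was run on 1 wild-type sample with 2 barcoded replicates. The authors made consensus reads, mapped them to mm10 with minimap2 2.17 (submitters' processing notes), removed repeated reads, took the soft-clipped 3′ bases as tail, left out untailed reads and those with few A at the tail start, extended tails into A tracts where needed, and assigned genes with featureCounts 2.0.1. The deposited table gives, per read, whole-number counts of passes and of A, T, C and G bases, without normalization. Base counts matched the tail sequence in all 1013675 reads. Nuclear protein-coding genes still held 7221 tails of 1 nt among reads with enough passes. The authors' step on A at the tail start thus seems not to have been applied to these reads as described. Here, reads with at least 7 passes and genes with at least 10 transcripts were used, tail length was A plus non-A bases, and genes were placed with GENCODE vM21 (GRCm38, 12955 of 12962 identifiers found). Replicates held 378458 and 635217 reads, of which 354259 and 593361 had enough passes. Protein, transcript and UTR lengths come from the transcript with the longest coding part. Copies were found with blastn 2.17.0. The members, gene lists and alternatives were chosen with earlier results of these data known, and every member with at least 10 transcripts is named or counted. The values of 1 tested member are not reported here singly, but enter the counts and medians. Intervals are 95% Wilson or exact binomial intervals, the floor is 3 counts, and both cover counting error only. The geometric mean per gene and a ratio of group medians were tested on simulated tails, without an excess of tails of 1 nt. The later steps, such as the class split, the replicate calls, the bins and the intervals, were not tested in this way. Calculations used scipy 1.17.1, numpy 2.4.6 and pandas 2.3.3 under Python 3.11.15, and plots used matplotlib 3.10.9.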

Additional observations from a re-analysis of the deposited data

Results flagged for a closer look

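Reads outside the members' own entries were found at 4 processed pseudogenes that are near-identical to members, each above the 3 counts taken as the floor. These were 125 transcripts at Gm8186, a copy of Snrpg, 140 at Gm10232, a copy of U2af1, 66 at Gm10120, a copy of Snrpd2, and 20 at Gm7935, a copy of Sf3b4. Their part in the values of the parent genes was measured only by adding them, as given above.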

How the results depend on the processing

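No paired analysis was possible because only 1 group was measured. The difference between Sm genes and large factors was positive in all 17 alternatives tried, from 26 nt to 41.3 nt. Each was set against the SD of the 2 replicates, which is small and imprecise with n = 2. The Sm median, the large-factor median and their difference, in this order, moved to 121.5, 87.8 and 33.8 nt with the median per gene (the difference by less than the SD), 120.04, 92.0 and 28.0 nt with the arithmetic mean, and 115, 89 and 26 nt over pooled transcripts. Large factors and the difference were 79.6 and 28.5 nt with tails of at least 6 nt, 80.0 and 28.2 nt with tails of at least 15 nt, and 66.8 and 41.3 nt with large factors of at least 600 residues. The Sm median and the difference were 102 and 28.3 nt with at least 5 transcripts, which lets in Snrpg, and 114 and 40.3 nt without Snrpb and Snrpn. The Sm median alone moved to 109 nt with at least 15 passes and to 109 nt with copies added. Leaving out either replicate gave 107 to 108 nt, 73.2 to 76.7 nt and 31.5 to 33.8 nt. Added after seeing the data were the copies, at least 10 transcripts in each replicate, and large factors without Prpf4b and Prpf39, and the last pair gave 33.4 nt each. Members above the all-gene median in both replicates were 45.2%, beside 35.7% of all nuclear genes. Against the protein-coding median they were 48.4%, but the share of all genes above that median is not given here, so this value has no background. Genes with few transcripts, such as Prpf40b, Snrpc and Prpf39, remain imprecise.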

Other observations

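Among the other splicing genes, some were singled out after their values were seen. U2surp, for a U2-associated protein, had 40.3 nt in replicate 1, with 36.7 nt in replicate 2, from 198 transcripts, the shortest gene tail of the 52 tested. Rbm25 had 56.2 nt and 43.1 nt. U2surp had 24 tails of 1 to 5 nt and Rbm25 had 27. Magoh, a subunit of the exon junction complex, had the longest gene tail of the 52, with 155 nt from 11 transcripts and 117 nt from 32.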
